A study of Mus musculus with 2 samples.

Results

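The bone mineralization genes described here are 10 genes that build or control the mineral of bone, *Alpl*, *Ibsp*, *Spp1*, *Bglap*, *Bglap2*, *Dmp1*, *Mepe*, *Phex*, *Ifitm5* and *Sparc*. They were found by symbol among the 31053 genes listed for the E15.5 library and the 27998 listed for the E17.5 library, and all 10 were in both. The libraries are single-cell RNA sequencing of coronal sutures, the joints between the frontal and parietal bones of the skull, from wild-type C57/BL6 mouse embryos. The E15.5 matrix came from 10 pooled sutures, digested with collagenase II and dispase and cleared of dead cells with a kit. The E17.5 matrix joined 3 batches, of 10 sutures from the first litter and 3 and 3 from the second, digested with collagenase IV and isolated by FACS. The embryos, the enzyme, the sorting, the sequencing centre, the reads per cell, the counting software and the listed genes changed together with the stage. They cannot be told apart from it. The E15.5 library has no replicate and the sources used here do not tie the 3 suffixes of the E17.5 barcodes to batches, so no test was run, and values by suffix are given as a description. The authors had given a label among 15 clusters to 5335 of the cells found in the E15.5 matrix and to 6830 in the E17.5 matrix, and 1287 and 3425 of these were osteogenic. The osteogenic clusters are OG1 (osteoprogenitors), OG2 and OG3 (preosteoblasts), OG4 (mature osteoblasts) and the dividing PO1 and PO2. The other 9 clusters are ectocranial (EC1 to EC4), ligament-like (LIG) and meningeal (MG1 to MG4).

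Bone matrix is laid down as unmineralized collagen and then filled with calcium phosphate. *Alpl* encodes tissue-nonspecific alkaline phosphatase, which removes pyrophosphate, an inhibitor of mineral growth. *Phex* encodes a membrane peptidase whose loss causes X-linked hypophosphatemia. *Ibsp* (bone sialoprotein), *Spp1* (osteopontin), *Dmp1* (dentin matrix protein) and *Mepe* encode acidic phosphoproteins of the SIBLING family, and *Dmp1*, *Phex* and *Mepe* are known above all from osteocytes, the osteoblasts that have become buried in matrix. *Bglap* and *Bglap2* encode osteocalcin, a late osteoblast product. *Ifitm5* encodes BRIL, a small membrane protein of mineralizing osteoblasts mutated in osteogenesis imperfecta type V, and *Sparc* encodes osteonectin, a collagen-binding protein that many connective tissues make.

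The SIBLING members lie together on chromosome 5 (GRCm38, the build of the files' mm10). *Dmp1* spans 104202613 to 104214102, *Ibsp* 104299171 to 104311469, *Mepe* 104325329 to 104338611 and *Spp1* 104435118 to 104441050, all on the plus strand. With *Dspp*, the dentin gene, they are the 5 protein-coding genes of a 270.3 kb stretch. *Alpl* lies on chromosome 4 from 137741733 to 137796384, *Phex* on chromosome X from 157162075 to 157415312 and *Sparc* on chromosome 11 from 55394500 to 55423183, each on the minus strand. *Bglap* (88383501 to 88384464) and *Bglap2* (88377736 to 88378699) are neighbours on the minus strand of chromosome 3. Of the 251 windows of 50 bases in the last 300 bases of the *Bglap* transcript, 201 (80.1%) also occur in a *Bglap2* transcript, so the split of 3′ reads between the pair is uncertain and their values are best read together. *Ifitm5* (chromosome 7, 140948958 to 140950291, minus strand) overlaps *Gm45717* on the same strand, and 227 of its 765 exonic bases (29.7%) are shared. *Gm45717* was listed only for E15.5, where it had 0 UMIs in every labelled cluster, so reads in the shared bases could have been lost to it at E15.5 only, which was not tested.

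The promoters of *Spp1*, *Dmp1* and *Bglap* are shown, the members with a match to a motif below in a listed window. These genes were also found in the same subset of mature osteoblasts below. *Phex* was found in that subset as well, and its listed window, not shown, held neither motif. Each sequence is from RefSeq on GRCm38.p6, reads 5′ to 3′ on the gene's strand and runs from 250 bases before the start site to 50 after it. *Spp1* and *Dmp1* each have a second listed window, with neither motif below, which is not shown. Capitals mark AACCACA, the letters known as a RUNX binding motif, searched on both strands, and TATAAA, searched on the gene's strand.
Spp1, chr5:104434861-104435160, plus strand: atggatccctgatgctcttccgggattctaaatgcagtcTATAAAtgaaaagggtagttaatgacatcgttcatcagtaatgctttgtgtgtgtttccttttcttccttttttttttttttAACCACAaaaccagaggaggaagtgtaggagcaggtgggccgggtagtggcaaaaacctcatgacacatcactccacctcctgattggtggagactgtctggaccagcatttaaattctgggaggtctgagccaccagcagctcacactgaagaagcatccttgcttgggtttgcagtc
Dmp1, chr5:104202367-104202666, plus strand: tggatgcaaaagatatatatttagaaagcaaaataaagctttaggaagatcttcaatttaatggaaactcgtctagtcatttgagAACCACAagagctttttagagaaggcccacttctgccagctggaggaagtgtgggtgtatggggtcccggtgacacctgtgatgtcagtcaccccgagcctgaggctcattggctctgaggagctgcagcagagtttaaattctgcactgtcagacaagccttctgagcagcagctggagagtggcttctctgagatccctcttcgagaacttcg
Bglap, chr3:88384417-88384716, minus strand: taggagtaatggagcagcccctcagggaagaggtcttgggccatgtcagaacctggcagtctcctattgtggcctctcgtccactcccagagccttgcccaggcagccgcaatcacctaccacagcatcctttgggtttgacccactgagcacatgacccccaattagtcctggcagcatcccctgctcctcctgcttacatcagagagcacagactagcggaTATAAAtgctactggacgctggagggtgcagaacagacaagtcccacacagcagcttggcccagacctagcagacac
AACCACA began 129 bases before the start site of *Spp1* and 165 bases before that of *Dmp1*, and TATAAA began 27 bases before that of *Bglap* and 211 bases before that of *Spp1*. Of 32851 promoters of this length, 5.27% held AACCACA on either strand and 8.32% held TATAAA, so a match is a description of these letters and not a site. No window was listed for *Bglap2*, which was not searched. The listed windows of the remaining members had neither motif, and these letters say nothing about binding.

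Levels are given as CPM, the UMIs of a gene summed over the cells of a cluster, per 1000000 UMIs of that cluster, and every interval is an exact 95% interval for counting error only. OG4 carried the defining osteoblast genes in both libraries. *Sp7*, the osteoblast transcription factor osterix, stood in OG4 at 204 CPM in the younger library and 318 CPM in the older one, and *Runx2*, its upstream regulator, at 192 and 139 CPM. In OG1, OG2 and OG3 *Sp7* was also lower at E15.5 than at E17.5, most of all in OG2, at 4.14 against 172 CPM. It stood at 15.1 against 91.9 CPM in OG1 and at 58.7 against 187 CPM in OG3. The shared labels thus covered cells with different levels of this marker. Median depth in OG4 was 7352 UMIs per cell over 190 cells at E15.5 and 19349 UMIs over 527 cells at E17.5. Of the barcode sequences, 42 labelled ones occurred in both libraries. A sum over a cluster cannot tell fewer expressing cells from less RNA per cell, so shares of cells are given further on.

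Mineralization genes stood apart in the mature osteoblasts. In OG4, 9 of the 10 members had at least 2 times the CPM of all other labelled cells at E15.5, where 6.87% of 12692 genes did, and 9 of 10 did so at E17.5, where 4.74% of 13106 genes did. The exception at E15.5 was *Mepe*, with 3 UMIs in all, and at E17.5 it was *Sparc*, at 1.46-fold. The clusters were drawn by the authors from these same cells, with *Ifitm5* and *Dmp1* among the genes used to name the osteogenic ones, so these ratios describe OG4 and do not test it. For the 9 members with enough UMIs, the median log2 ratio was 8.20 at E15.5 and 5.53 at E17.5, against -0.49 and -0.27 over all genes.

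**Figure D1:**
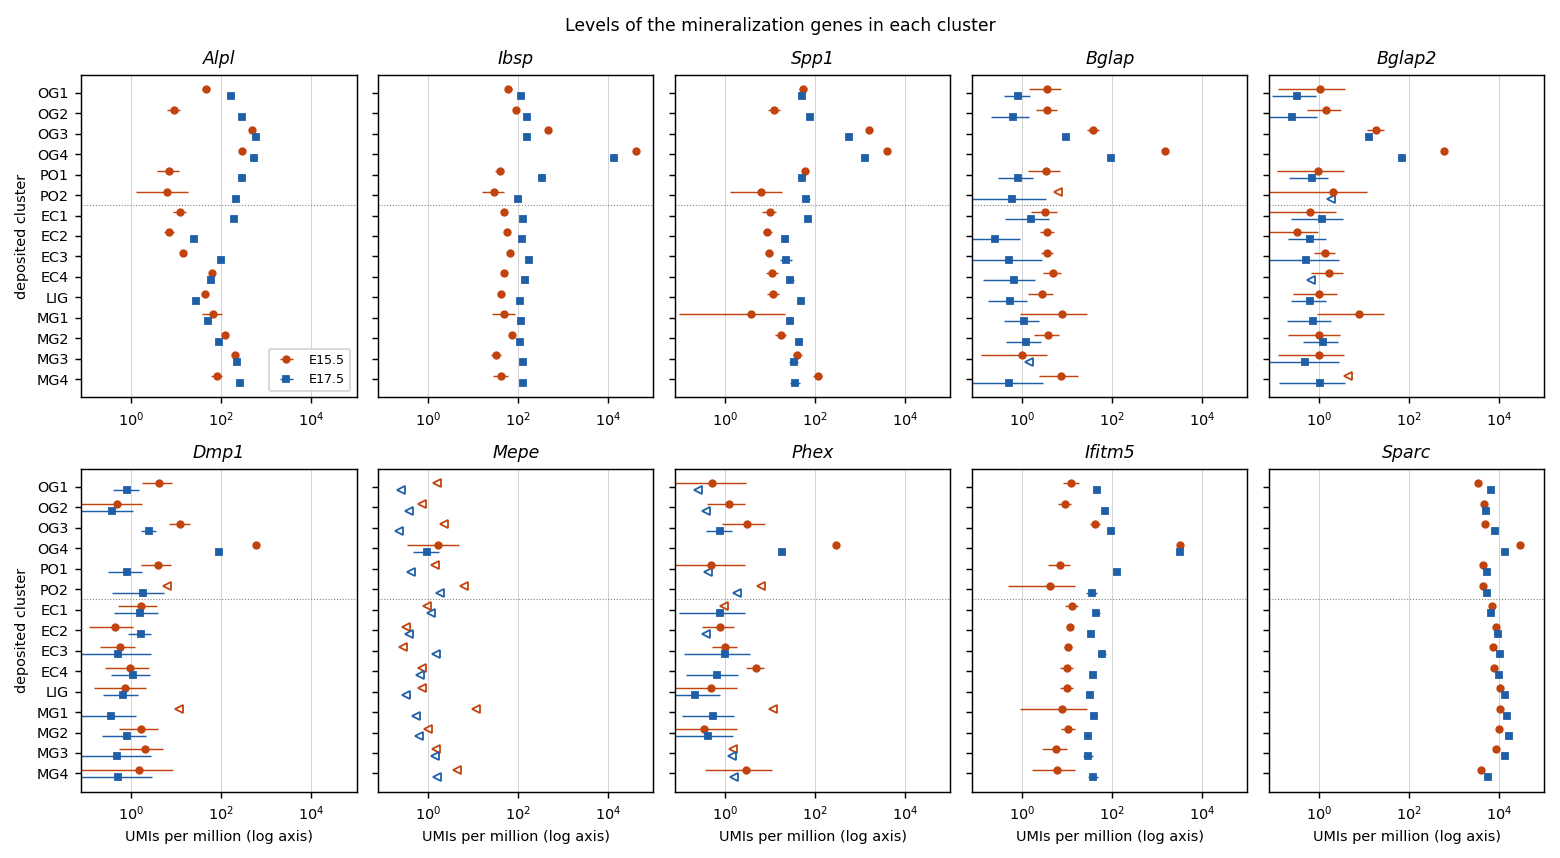
CPM (log axis) of each member in the 15 deposited clusters, E15.5 as circles and E17.5 as squares, with exact 95% counting intervals; open triangles mark clusters with 0 UMIs, drawn at the level of 3 UMIs, and the dotted line separates osteogenic from other clusters. *Ibsp*, *Dmp1*, *Phex* and *Ifitm5* have a single high cluster, OG4, whereas *Alpl* is highest in OG3 and *Sparc* is high in every cluster.

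Among the enzymes, *Alpl* was highest in OG3, the preosteoblasts, and not in OG4, in each library taken as a whole. At E15.5 it reached 481 CPM (444 to 520.1) in OG3 and 297 CPM (272 to 323) in OG4, and at E17.5 607 CPM (594 to 621) and 547 CPM (533 to 562). The level in OG4 was 0.617 times that in OG3 at E15.5 (0.549 to 0.694) and 0.902 times at E17.5 (0.871 to 0.933). In both libraries the intervals of OG3 and OG4, which cover counting error only, did not overlap. The order at E17.5 was not seen in every barcode suffix. In suffix 1 OG3 held 550.4 CPM. OG4 there held 591 CPM in 72 cells without a *Dmp1* UMI and 481 CPM in 18 with one. *Phex* behaved differently and was almost absent outside OG4. It had 287 CPM in OG4 at E15.5 and at most 4.89 CPM in any cluster outside the osteogenic ones, and 18.4 CPM against at most 1.02 CPM at E17.5. Between neighbours below OG4 in the order of *Phex* levels, no pair differed beyond its counting intervals in either library.

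The SIBLING genes differed in how far they were shared between OG3 and OG4. *Ibsp* went from 449 CPM in OG3 to 41200 CPM in OG4 at E15.5 (91.7-fold, 84.5 to 99.7) and from 158 to 13640 CPM at E17.5 (86.5-fold, 82.8 to 90.4). *Spp1*, in contrast, was also high in OG3, and not in OG2, where it had 12.4 CPM at E15.5 and 75.9 CPM at E17.5. It stood at 1598 CPM in OG3 and 3830 CPM in OG4 at E15.5 (2.4-fold, 2.28 to 2.52), and at 560.2 and 1297 CPM at E17.5 (2.32-fold, 2.25 to 2.38). *Dmp1* followed *Ibsp*, going from 12.4 CPM in OG3 to 603 CPM in OG4 at E15.5 (48.8-fold) and from 2.48 to 89.2 CPM at E17.5 (35.9-fold). *Mepe* was found in OG4 alone among the labelled cells, as 3 UMIs in 3 cells at E15.5 and 10 UMIs in 7 cells at E17.5, which at E17.5 is at least 26.1-fold higher than elsewhere among labelled cells, with 3 UMIs taken as the floor for those cells together. *Dspp*, their neighbour on chromosome 5, had 0 UMIs in the labelled cells of both libraries.

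The osteocalcin genes moved as a pair. *Bglap* stood at 37.9 CPM in OG3 and 1505 CPM in OG4 at E15.5 (39.7-fold, 30 to 53.8), and *Bglap2* at 18.6 and 606 CPM (32.6-fold, 21.8 to 51.2). At E17.5 *Bglap* was at 9.39 and 96.4 CPM (10.3-fold) and *Bglap2* at 13 and 68.3 CPM (5.27-fold). *Bglap3*, the third copy on chromosome 3, had 3 UMIs in OG4 at E15.5 and 31 at E17.5. Clusters other than OG3 and OG4 held at most 7.64 CPM of either gene at E15.5 and 1.58 CPM at E17.5.

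*Ifitm5* was also far higher in OG4 than elsewhere, with ratios to all remaining labelled cells of 295 (E15.5) and 56.1 (E17.5), less than the 595 and 92.2 of *Ibsp*. Its level in OG4 was 3263 CPM at E15.5 and 3238 CPM at E17.5, against 42.5 CPM (32 to 55.3) and 92.6 CPM (87.4 to 98) in OG3. The highest cluster after OG4 was OG3 at E15.5 and PO1 at E17.5, where *Ifitm5* had 126 CPM and *Ibsp* 335 CPM. *Sparc* was broad. At E15.5 OG4 led with 28233 CPM and the remaining clusters ranged from 3295 CPM in OG1 to 10376 CPM in MG1. At E17.5 the meningeal MG2 led with 16644 CPM, followed by MG1 and LIG, and OG4, at 13368 CPM, did not differ from MG3 beyond its interval.

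Differences between pairs of osteogenic clusters were not alike in the 2 libraries. The pairs are not a single line of maturation, since OG2 and OG3 were described by the authors as separate paths to OG4. Against OG2, *Alpl* in OG4 was 32.9-fold higher (23.6 to 47.2) at E15.5 and 1.92-fold higher (1.83 to 2.01) at E17.5, and *Ibsp* 451-fold (407 to 500.2) and 88.7-fold (83.8 to 93.9). Between OG3 and OG4, 8 of 10 members were at least 2-fold higher in OG4 at E15.5, where 9.10% of genes were (all but *Alpl* and *Mepe*), and 8 of 10 at E17.5, where 4.66% were (all but *Alpl* and *Sparc*). Between OG2 and OG3, 8 of 10 members were at least 2-fold higher in OG3 at E15.5, where 4.48% of genes were, and 6 of 10 at E17.5, where 3.11% were. The shares cover genes with at least 50 UMIs, which 6 members had at E15.5 and 7 at E17.5. Below that limit, the E15.5 count included *Phex* (4 UMIs against 5, interval 0.503 to 11.8), *Dmp1* (16 against 2) and *Bglap2* (24 against 6). The E17.5 count included *Phex* (10 against 0) and *Dmp1* (32 against 3). *Alpl* was 53.3-fold higher in OG3 (38.2 to 76.4) at E15.5, from 9.02 to 481 CPM, and 2.13-fold higher (2.03 to 2.23) at E17.5, from 286 to 607 CPM. *Ibsp* was 4.91-fold higher in OG3 (4.31 to 5.61) at E15.5 and had a ratio of 1.03 (0.955 to 1.1) at E17.5. *Ifitm5* was at 4.71-fold (3.05 to 7.36) and 1.32-fold (1.2 to 1.47). The E17.5 cells with barcode suffix 1 alone gave a smaller count, and 3 members passed 2-fold in place of 6. Between OG1 and OG2, 1 member (*Phex*, on 1 and 5 UMIs) was at least 2-fold higher in OG2 at E15.5, where 3.34% of genes were, and 0 at E17.5, where 1.57% were. At least 2-fold lower were 3 members at E15.5, *Alpl*, *Spp1* and *Dmp1* (3.65% of genes), and 1 at E17.5, *Dmp1* (4.06%). *Dmp1* rested on 8 UMIs in OG1 and 2 in OG2 at E15.5, and on 10 and 3 at E17.5 (ratio 0.452, 0.08 to 1.76). *Alpl* was lower in OG2 than in OG1 at E15.5, at 9.02 against 46.8 CPM, and higher at E17.5, at 286 against 169 CPM, the same pattern as *Sp7* (4.14 against 15.1 CPM, and 172 against 91.9 CPM).

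Between the stages, most mineralization genes of OG4 were lower at E17.5, whereas *Alpl* and *Ifitm5* were not. At E17.5, 7 of 10 members were at least 2-fold lower in CPM than at E15.5, where 6.64% of 9328 genes in both lists were, and 0 of 10 were at least 2-fold higher, where 16.7% of genes were. The median log2 ratio was -1.59 over 9 members and 0.25 over all genes tested. *Bglap* went from 1505 to 96.4 CPM (ratio 0.0641, 0.0596 to 0.0689), *Phex* from 287 to 18.4 CPM (0.064, 0.054 to 0.0756), *Bglap2* from 606 to 68.3 CPM (0.113) and *Dmp1* from 603 to 89.2 CPM (0.148). *Ibsp* (0.331), *Spp1* (0.339) and *Sparc* (0.473) were lower by smaller factors. *Ifitm5* had a ratio of 0.992 (0.965 to 1.02), and *Alpl* a ratio of 1.84 (1.69 to 2.02). The overlap of *Ifitm5* with *Gm45717*, listed only for E15.5, could have lowered its E15.5 count, which was not tested.

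Each of the 3 suffixes carried by E17.5 barcodes, which the sources do not assign to batches, gave the same 7 members as lower. Their *Bglap* levels in OG4 were 65.1, 30.5 and 171 CPM their *Dmp1* levels 191, 76.4 and 61.9 CPM and their *Phex* levels 45.5, 8.67 and 17.1 CPM, so the suffixes were spread by several fold in the late genes but stayed under the E15.5 levels. Their *Ibsp* levels, at 14124, 14176 and 12944 CPM, lay close together. For some members the difference depended on the scale. As mean UMIs per OG4 cell, without division by depth, 4 members were at least 2-fold lower, *Bglap*, *Bglap2*, *Dmp1* and *Phex*, while *Ibsp* had a ratio of 0.692, *Spp1* 0.708 and *Sparc* 0.99, and *Alpl* (3.86) and *Ifitm5* (2.08) were at least 2-fold higher. The share of all genes past 2-fold was not computed on this scale, which rises with depth. The median OG4 cell held 7352 UMIs at E15.5 and 19349 at E17.5. Labelled E15.5 cells also held fewer UMIs than the authors' cell table states (median 8510 against 11513), whereas E17.5 cells held the same number. The ratios of mean UMIs per cell carry that mismatch, which is on the E15.5 side only. The part of this mismatch, depth, enzyme and sorting in these differences was not tested.

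**Figure D2:**
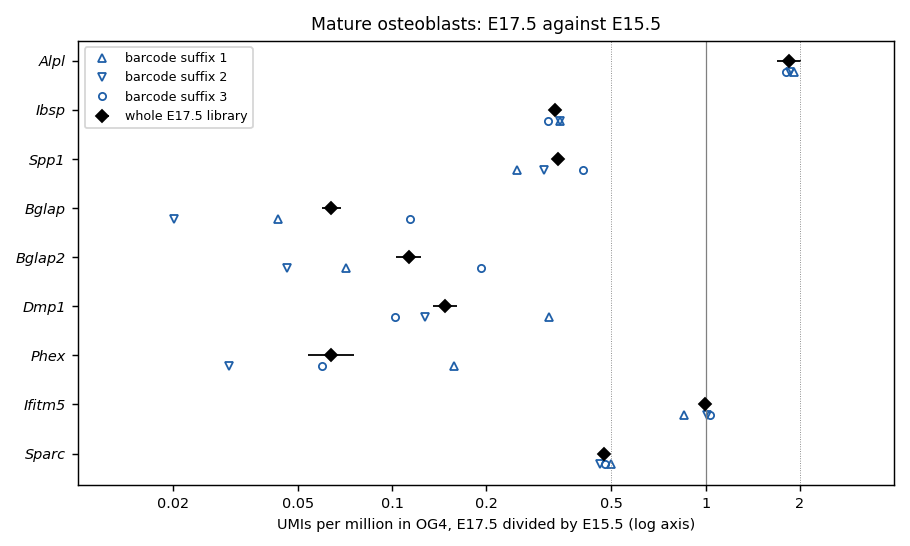
CPM in OG4 at E17.5 divided by E15.5 (log axis) for the 9 members with enough UMIs; diamonds are the whole E17.5 library with the exact 95% counting interval, open symbols its 3 barcode suffixes, and dotted lines mark 2-fold. *Bglap*, *Bglap2*, *Dmp1* and *Phex* lie lowest and are spread between suffixes, *Ifitm5* lies at 0.992 and *Alpl* at 1.84.

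In OG1, OG2 and PO1, *Alpl* and *Ifitm5* were at least 2-fold higher at E17.5. Of the 10 members, 2 were at least 2-fold higher and 2 lower in OG1, against 7.74% and 8.26% of genes. The counts were 3 and 3 in OG2, against 8.51% and 12.3% of genes, 1 and 5 in OG3, against 7.95% and 6.84%, and 3 and 2 in PO1, against 9.14% and 8.93%. The members lower in OG3 were *Ibsp*, *Spp1*, *Bglap*, *Dmp1* and *Phex*, the last on 4 and 10 UMIs, and those lower in OG1, OG2 and PO1 had at most 15 UMIs at E15.5. *Alpl* went from 9.02 to 286 CPM in OG2 (31.7-fold, 22.9 to 45.1), from 6.86 to 288 CPM in PO1 (42-fold, 24.9 to 76.9) and from 46.8 to 169 CPM in OG1 (3.62-fold, 2.93 to 4.52). *Ifitm5* was 7.76-fold higher in OG2 and 18.4-fold higher in PO1 at E17.5. *Ifitm5* and *Ibsp* were also higher at E17.5 in each of the 9 clusters outside the osteogenic group, *Ifitm5* by 2.7- to 6.3-fold and *Ibsp* by 1.53- to 3.99-fold, so a higher floor for these genes moved with the stage. The limit from *Gm45717* applies to the *Ifitm5* values here as well. *Alpl* outside the osteogenic group was higher at E17.5 in EC1 (16-fold, 11.5 to 22.8), EC3 (6.99-fold), EC2 (3.67-fold) and MG4 (3.18-fold), and its ratio ranged from 0.622 to 1.12 in the other 5 clusters.

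That floor limits what a low level means. *Ibsp* outside the osteogenic clusters ranged from 32.6 to 71.8 CPM at E15.5 and from 109.9 to 171 CPM at E17.5, with little order among ectocranial, ligament-like and meningeal cells. Among unlabelled cells, endothelial-like cells, which should lack bone sialoprotein, held 31.6 CPM at E15.5 and 121 CPM at E17.5. *Ibsp* in OG1 (113 CPM), OG2 (154 CPM) and OG3 (158 CPM) at E17.5 was within that range, and only OG4 and PO1 stood above it. Whether the signal within the range is background RNA or low expression was not tested. *Ifitm5* in OG1 (46.8 CPM) was within its own range outside the osteogenic clusters, 29.1 to 60.4 CPM. *Bglap*, *Bglap2*, *Dmp1* and *Phex* had almost no such floor at E17.5, at most 1.64 CPM in any cluster outside the osteogenic group.

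Shares of cells told apart 2 kinds of OG4 gene. To compare the libraries at 1 depth, each cell was thinned to 3000 UMIs, which kept 176 of 190 OG4 cells at E15.5 and all 527 at E17.5. *Ifitm5* was then found in 97.7% of E15.5 and 95.3% of E17.5 OG4 cells, and *Ibsp* in 99.4% and 90.9%, against 12% and 28.6% for *Ibsp* in the cells outside the osteogenic clusters. *Bglap*, in contrast, was found in 50% (42.4 to 57.6) of OG4 cells at E15.5 and in 4.55% (2.94 to 6.7) at E17.5. *Phex* went from 46% to 4.36%, *Dmp1* from 31.2% to 7.21%, *Bglap2* from 34.7% to 5.5% and *Spp1* from 43.2% to 18.2%. *Alpl* went from 48.9% (41.3 to 56.5) to 77.8% (74 to 81.3). Before thinning the shares of *Bglap* were 59.5% and 12.5%, and those of *Alpl* 76.3% and 98.5%.

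**Figure D3:**
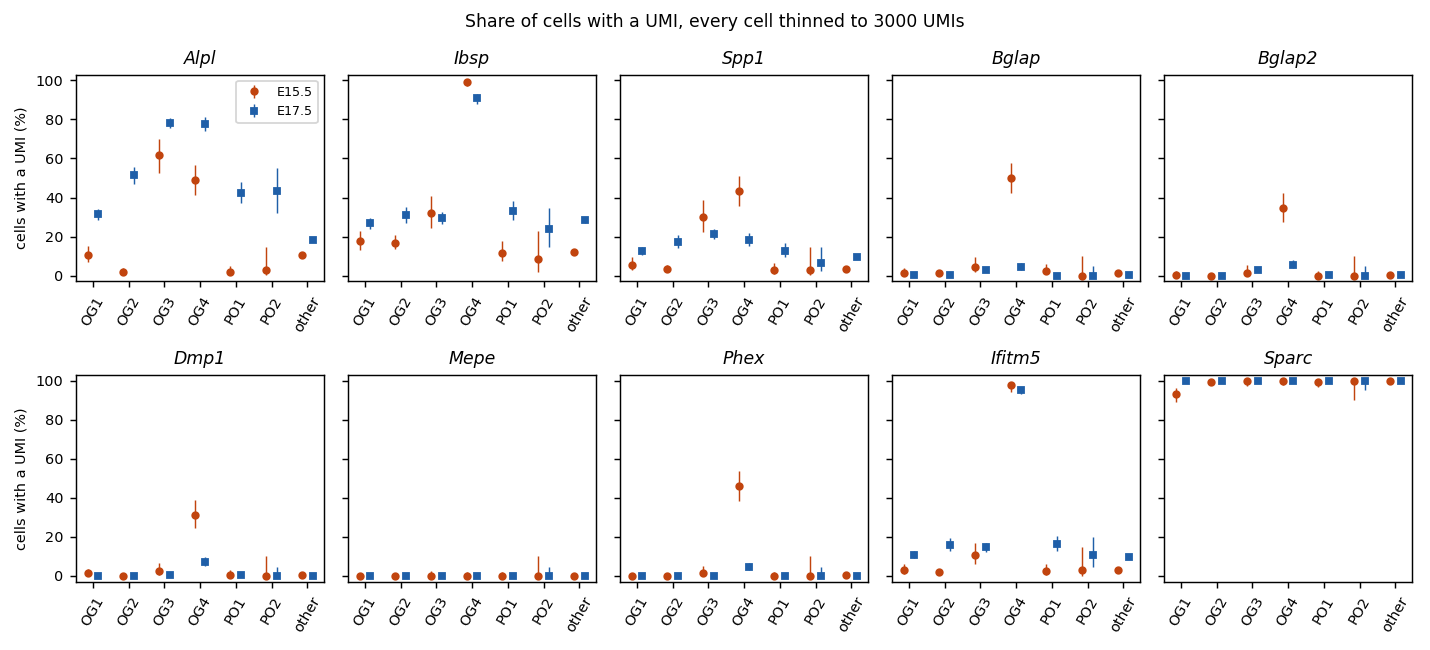
Percent of cells with at least 1 UMI of each member after thinning every cell to 3000 UMIs, in the 6 osteogenic clusters and in all other labelled cells (other), E15.5 as circles and E17.5 as squares with exact 95% binomial intervals. In OG4, *Ifitm5* is found in 97.7% and 95.3% of cells, whereas *Bglap* is found in 50% at E15.5 and 4.55% at E17.5.

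The preosteoblast signal was uneven in the same way. In OG3, *Alpl* was found in 61.7% (52.8 to 69.9) of E15.5 and 78.3% (75.5 to 80.9) of E17.5 thinned cells, and its top 10 cells held 22.5% and 3.86% of its UMIs. *Spp1* was found in 30.1% and 21.4% of them, but its top 10 cells held 72.4% of the UMIs among 140 cells at E15.5 and 50.7% among 927 at E17.5, and a single cell reached 889 UMIs. The OG3 levels of *Spp1* in the E17.5 suffixes were 499, 307 and 875 CPM, a wider spread than that of *Alpl* (550.4, 659 and 589.6 CPM). *Ibsp* in OG3 at E15.5 rested on few cells as well, with 74.2% of its UMIs in 10 cells. In PO1 at E17.5, where *Ibsp* stood above the range of the clusters outside the osteogenic group, 10 of 363 cells held 56.5% of its UMIs and 43% of those of *Ifitm5*.

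Inside OG4 the median cell held 318 UMIs of *Ibsp* at E15.5 against 139 at E17.5, 19.5 and 52 UMIs of *Ifitm5*, 224 and 210 UMIs of *Sparc*, and 2 and 10 UMIs of *Alpl*. The median cell held 1 UMI of *Spp1* in both libraries, although single cells reached 1329 and 1774 UMIs. For *Bglap* the median was 1 UMI at E15.5 and 0 at E17.5, with maxima of 297 and 504 UMIs. *Dmp1* had a median of 0 UMIs in both and maxima of 229 and 100 UMIs.

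The late genes shared cells. In thinned OG4 cells at E15.5, *Bglap* was found in 65 of 76 cells with a *Spp1* UMI (85.5%, 75.6 to 92.5) and in 23 of 100 cells without one (23%, 15.2 to 32.5). At E17.5 the same shares were 19.8% of 96 cells and 1.16% of 431 cells. *Spp1* was found in 63.2% (46 to 78.2) of the 38 cells with a *Dmp1* UMI at E17.5 and in 14.7% (11.7 to 18.2) of the 489 without one, and *Phex* in 31.6% and 2.25%. *Alpl* did not follow them. It was found in 39.8% (29.5 to 50.8) of cells with *Bglap* and 58% (47 to 68.4) of cells without it at E15.5, and in 66.7% (44.7 to 84.4) and 78.3% (74.5 to 81.9) at E17.5. Cells of 1 library are not replicates, and these shares describe the cells captured. None of *Spp1*, *Bglap*, *Bglap2*, *Dmp1* and *Phex* was found in 26.7% of thinned OG4 cells at E15.5 and in 76.9% at E17.5, and all 5 were found together in 14 of 176 cells (7.95%) and 4 of 527 cells (0.759%).

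At E17.5 the cells with a *Dmp1* UMI, before thinning, were 79 of the 527 OG4 cells and had nearly the depth of the rest, 20882 against 19158 UMIs in the median cell. They held 7093 CPM of *Spp1* against 204 CPM, 492 CPM of *Bglap* against 21.9 CPM, 91.9 CPM of *Phex* against 4.53 CPM and 29371 CPM of *Ibsp* against 10674 CPM. *Sparc* stood at 23952 against 11372 CPM in these cells, and *Alpl* at 504 against 556 CPM. The difference held in each barcode suffix, where *Ibsp* in the cells with *Dmp1* was at 33788, 32216 and 24371 CPM and in those without it at 8561, 11212 and 10905 CPM. At E15.5 the 84 cells with *Dmp1* and the 106 without it had nearly the same *Ibsp*, 40963 and 41471 CPM, although the former were deeper (10376 against 6079 UMIs). *Spp1* differed there too, at 5550 against 1858 CPM. The *Ibsp* contrast depended on the gene used to split OG4. Split by *Spp1*, cells with it held 35849 CPM of *Ibsp* and cells without it 48828 CPM in the younger library. In the older library these levels were 14473 and 12654 CPM. *Bglap* gave 38592 and 46083 CPM, then 19281 and 12755 CPM, in the same order. *Phex* gave 41906 and 38832 CPM, then 31964 and 11113 CPM, nearer to the split by *Dmp1*. A few cells carried most of the *Bglap* RNA, since the top 10 cells held 83.5% of the *Bglap* UMIs of OG4 at E17.5 and 54.6% at E15.5, against 5.34% and 23.3% for *Alpl*.

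**Figure D4:**
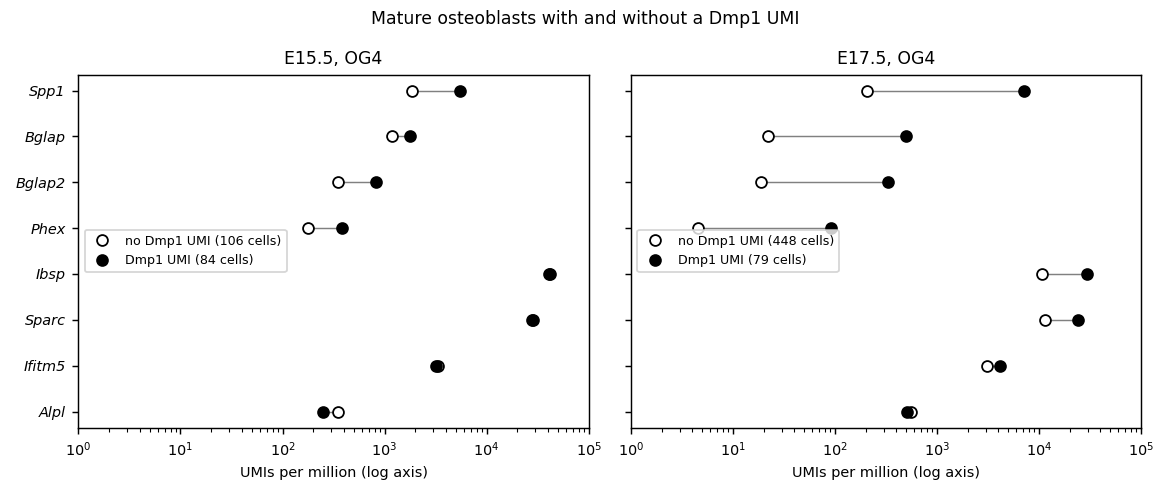
CPM (log axis) of 8 members in the OG4 cells with a *Dmp1* UMI (filled) and without one (open) in each library, joined by a line. At E17.5 *Spp1* stands at 7093 against 204 and *Ibsp* at 29371 against 10674, while at E15.5 *Ibsp* is nearly the same in both, 40963 and 41471.

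Outside the osteogenic clusters, *Alpl* was highest in meningeal clusters, and at E17.5 also in an ectocranial one. MG3 held 203 CPM at E15.5 and 227 CPM at E17.5, and MG4 81.3 and 259 CPM. At E15.5 MG3 was the third cluster in order, above OG1, OG2 and PO1, and at E17.5 MG4 did not differ from OG2 beyond the intervals. EC1 held 197 CPM at E17.5 (180.4 to 215), with an interval that overlapped that of MG3, while MG1 (51 CPM) and MG2 (89.7 CPM) were lower. *Spp1* was at 116 CPM in MG4 at E15.5, more than in any osteogenic cluster other than OG3 and OG4, and no cluster outside the osteogenic group passed 70 CPM at E17.5.

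Of 44 other genes of mineralization, grouped by role, 10 were at least 2-fold higher in OG4 than in the other labelled cells in both libraries, where 3.02% of 12150 genes were, and 3 were at least 2-fold lower in both, where 13.4% were. *Smpd3*, a sphingomyelinase needed for bone mineral, stood at 1613 CPM in OG4 and 3.38 CPM elsewhere at E15.5, and at 1123 and 27.9 CPM in the older library. It was the 1 of 4 genes for matrix vesicles and lipid that was higher in both. Of the 8 osteocyte and hormone genes, 4 were higher in both, namely *Sost*, the osteocyte inhibitor sclerostin (22.7 against 0.256 CPM, and 14.1 against 0.146 CPM), the Wnt inhibitor *Dkk1* (144 against 8.44, and 95.9 against 6.12 CPM), the vitamin D receptor *Vdr* (22.9- and 3.08-fold) and the parathyroid hormone receptor *Pth1r* (3.55- and 4.81-fold). The transcription factor *Sp7* (41.5- and 3.5-fold), the matrix protein *Omd* (32.6- and 3-fold), the collagen chaperone *Fkbp10* (2.68- and 2.23-fold) and *Creb3l1*, a regulator of collagen secretion (2.47- and 3.13-fold), were also among the 10. *Mgp*, an inhibitor of calcification (0.396 and 0.35), and the small proteoglycans *Ogn* (0.113 and 0.136) and *Dcn* (0.1 and 0.141) were the 3 lower in both.

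The genes that handle pyrophosphate and phosphate were not alike in the libraries, and 0 of 6 were higher in both, 1 of them (*Phospho1*) not having enough UMIs at E15.5. *Enpp1*, which makes pyrophosphate, was at 50.8 CPM in OG4 against 2.56 CPM at E15.5 and at 8.67 against 14.9 CPM at E17.5, and *Ank*, which exports it, at 41.4 against 3.95 and 10.5 against 11.7 CPM. Of the 10 genes for collagen and its processing, 6 were at least 2-fold higher at E15.5 and 2 at E17.5. *Col1a1* stood at 53092 CPM in OG4 and 4659 CPM elsewhere at E15.5, and at 18758 and 9815 CPM at E17.5, with MG1 as its highest cluster there. Of all 44, 19 were at least 2-fold higher in OG4 at E15.5, where 6.87% of genes were, and 12 at E17.5, where 4.74% were.

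The genes most like a member over the 15 clusters were chosen by the lower of the 2 libraries' Pearson r of log2(CPM + 1), among 12150 genes, and are given as a description, since clusters share libraries and the r of a gene with a single high cluster rests on that cluster. *Ibsp* and *Ifitm5* were each other's nearest gene (r of 0.989 at E15.5 and 0.979 at E17.5). *Bmp8a*, a bone morphogenetic protein, was nearest to both *Bglap* (0.928 and 0.922) and *Dmp1* (0.951 and 0.953). *Bglap2* was nearest to *Bglap* (0.909 and 0.967). *Sparc* was nearest to the type I collagen genes *Col1a2* (0.965 and 0.974) and *Col1a1* (0.916 and 0.913). *Alpl*, highest in OG3, had weaker neighbours, led by *Smad9* (0.837 and 0.837), *Rap1gap* and *Tpd52*. *Spp1* was nearest to *Cd200* (0.841 and 0.867) and *Fat3*, and *Phex* to *RP23-457J22.1* (0.930 and 0.938) and *Lipi*, a lipase gene. *Ifitm5* was also near *Sgms2* (0.957 and 0.968), which encodes a sphingomyelin synthase, and *Mepe*, with its few UMIs in OG4 alone, gave no pattern beyond that cluster.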

How the data were processed

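Wild-type coronal suture cells had been captured with a droplet 3′ kit. The authors deposited UMI counts per gene and cell, made with Cell Ranger on mm10 and not normalized; the E15.5 header gives version 3.1.0, and the methods name an earlier one. A table deposited by the authors gave each labelled cell's cluster, from Seurat 3.2.0, with its UMIs and the percent of them that were mitochondrial, *Hbb* or *Hba*. Labelled E15.5 cells held fewer UMIs than that table states in 5335 of 5335 cells (median 8510 against 11513), and E17.5 cells the same number. The cause was not tested. Table cells that are not in the matrix, 5 at E15.5, were not used. No per-sample column was left unused.

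Counts were summed per cluster and library (Python 3.11.15, NumPy 2.4.6, SciPy 1.17.1). Labelled cells held 48607817 UMIs (E15.5) and 92585034 UMIs (E17.5). Ratios carry exact conditional intervals (95%), and shares Clopper-Pearson ones. UMIs are amplified molecules counted once, and the intervals cover counting error only. The labels give 1 sample per stage, E15.5 lacks a replicate and the E17.5 suffixes are not tied to batches in the sources used here, so no test was run. A gene counted as changed at 2-fold with over 3 UMIs in the higher group, and the shares of all genes used those with at least 50 UMIs in both groups together. The counts of members did not use that limit of 50 UMIs. A group at 0 was set to a floor of 3 UMIs. Counts for OG4 against the other labelled cells were simulated with Poisson counting error only, over 12692 genes for E15.5 and 13106 for E17.5. Genes raised 4-fold were called in 99.0% and 100.0%, and genes lowered 4-fold in 90.0% and 98.0%. Unchanged genes were called higher in 1.04% and 0.11% and lower in 3.55% and 0.59%. The simulation held no spread between cells, so these rates do not cover genes whose UMIs lie in few cells. Unlabelled cells with at least 1000 UMIs and 1000 genes, at most 7.5% mitochondrial and 3% globin UMIs, were clustered with Scanpy 1.11.5 (resolution 1) and named from marker lists. Doublets were left in for the main values; Scrublet scores were computed per barcode suffix, and an alternative left out the top 6%. Cells were thinned to 3000 UMIs for shares. The named genes are the members, the genes of the mineralization list past 2-fold in both libraries, and the 3 genes most like each member. *Enpp1*, *Ank*, *Phospho1*, *Col1a1*, *Runx2*, *Dlx5*, *Dspp*, *Bglap3* and *Gm45717* were named beside these after their values were seen, as were the leading genes of unnamed cells. 1 gene of the list is counted but not reported here by name. Members and lists were chosen with earlier results of these data known. The alternatives changed the cell filter, doublets, depth, scaling, fold limit, gene list and barcode suffix.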

Additional observations from a re-analysis of the deposited data

Results flagged for a closer look

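The difference between OG1 and OG2 pointed in opposite directions in the 2 libraries for 3 members, with counting intervals on opposite sides of 1 and the same direction in all 3 barcode suffixes at E17.5. The difference between the libraries was not tested. *Alpl* in OG2 was 0.193 times its level in OG1 at E15.5 (0.128 to 0.286) and 1.69 times at E17.5 (1.59 to 1.79), with 1.52 to 2.04 in the suffixes. *Spp1* had ratios of 0.23 (0.161 to 0.324) and 1.45 (1.29 to 1.62), with 1.11 to 1.57 in the suffixes. *Sparc* went the other way, at 1.39 (1.35 to 1.43) and 0.8 (0.79 to 0.81), with 0.712 to 0.828 in the suffixes. *Sp7* moved with *Alpl*, at 0.275 and 1.87.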

How the results depend on the processing

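No paired analysis was possible because the labels give 1 sample per stage and tie no E17.5 barcode suffix to a batch; ratios by suffix were computed as values with no test. Of 93 recomputed counts of members or listed genes, 80 stayed within 1.5 times the reported count. As mean UMIs per cell, not corrected for depth, 4 members in place of 7 were at least 2-fold lower at E17.5 in OG4. On that scale 2 in place of 0 were higher there, and 1 in place of 0 was higher in OG2 than in OG1 at E17.5. With cells thinned to 3000 UMIs, 1 member (*Alpl*, 2.14-fold) was higher at E17.5 in OG4, and 0 in place of 1 were higher in OG2 than in OG1 at E15.5. At a limit of 1.5-fold, 1 member was higher at E17.5 in OG4, and OG2 exceeded OG1 in 2 members in the younger library and 1 in the older; at 3-fold the younger count was 0. Without the top Scrublet scores that count was 2. In barcode suffix 1, 3 members in place of 6 were higher in OG3 than in OG2 at E17.5, and 1 member was higher in OG2 than in OG1 in suffix 1 and in suffix 3. The cause was not tested. Of 141 recomputed ratios of OG4 to the other labelled cells, 61 lay inside the counting interval and 80 outside it, and of 87 ratios between the stages in OG4, 33 and 54. No ratio of at least 2-fold changed direction under any alternative run. Low counts limit *Mepe*, *Bglap3* and *Phex* at E17.5.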

Other observations

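Among cells without a deposited label, clustered again and named from marker genes, *Bglap*, *Dmp1* and *Phex* stood at most at 14.6 CPM, and *Spp1*, *Ibsp* and *Alpl* varied between groups. Osteoclast-like cells, which resorb bone, held 76.7 CPM of *Spp1* at E15.5 and 50.2 CPM at E17.5, and chondrocyte-like cells 16.7 and 49.2 CPM. Pericyte-like cells, which line small vessels, held 149.8 CPM of *Spp1* at E15.5, with 93.3% of those UMIs in 10 cells, and 107 CPM at E17.5, and 14.6 CPM of *Dmp1* at E17.5. *Ibsp* stood at 339 CPM in macrophage-like cells at E15.5, but 1 cell held 718 of its 926 UMIs. The 451 unnamed cells at E17.5, from 3 clusters with a median of 25979 UMIs per cell, held 223 CPM of *Alpl*, found in 73.6% of them, 210.0 CPM of *Ibsp* and 129.9 CPM of *Ifitm5*. *Ibsp* reached 821 CPM in an unnamed group of 74 unlabelled cells at E15.5 whose leading genes were *Sox2*, *Prokr2* and *Hes5*, and it was found in 52.7% of them, while *Dmp1* and *Phex* had 0 UMIs there and *Sparc* 2314 CPM. This group was picked out after its values were seen.

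*Sost* was carried by few mature osteoblasts. At E17.5 it was found in 1.52% of the 527 OG4 cells, which held 148 UMIs, and it stood at 87.7 CPM in OG4 cells with a *Dmp1* UMI and 0.226 CPM in those without one. At E15.5 it was found in 7.37% of the 190 cells, at 41.4 and 1.19 CPM.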
